A study of Mus musculus with 12 samples.

Results

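The comparison described here set blood neutrophils of Hmgb1ΔMye mice against those of wild-type (WT) mice, both given saline, so that the genotypes were compared without an inflammatory stimulus. Its members were the 3 libraries labelled KO-Saline and the 3 labelled WT-Saline, 6 of the 12 libraries of the study, and all 9374 genes of the deposited expression table. The mice were female, and neutrophils were taken 16 h after saline. The other 6 libraries came from mice of both genotypes given lipopolysaccharide (LPS) at 0.5 mg/kg for the same time, 3 libraries a genotype, and are named WT-LPS and KO-LPS. KO stands for the Hmgb1ΔMye label, in which ΔMye is a usual name for a deletion in myeloid cells. The promoter that drove the deletion, the mouse strain, the age and the way neutrophils were isolated are not given in the labels. Nothing in the labels ties the 3 libraries of a group to different mice. A p-value here therefore reflects the variation among these samples alone, part or all of which may be technical.

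HMGB1 is a DNA-bending protein of chromatin. Released by dying or activated cells, it acts as an alarm signal through receptors that include RAGE (gene Ager), TLR2 and TLR4. Neutrophils are short-lived granulocytes that carry antimicrobial proteins in azurophil, specific and gelatinase granules, whose messages are made in that order while the cells mature in the bone marrow. Blood neutrophils therefore hold less granule message than their precursors, and they respond to stimuli through immediate-early and NF-kB target genes.

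The saline libraries held between 399702 and 526757 reads in the table, and the median gene had 10.7 reads per saline library. Levels are in CPM, a read number divided by the size of its library on a fixed scale. At this depth 3 reads in a library, the limit that a count of 0 allows, stand for 5.59 to 7.87 CPM. Replicate 3 of KO-Saline had 0 reads for 19.2% of the genes, against 9.08% to 12.4% in the other 5 saline libraries. Known neutrophil genes were abundant in both groups: the G-CSF receptor gene Csf3r stood at 5359 ± 396 CPM in WT-Saline and 5510 ± 260.2 in KO-Saline (SD, n = 3), and the gelatinase gene Mmp9 at 2067 ± 412 and 2017 ± 477. Ly6g, the surface marker by which mouse neutrophils are commonly sorted, was low in both, at 12.3 ± 3.86 and 44.5 ± 7.11 CPM. Outside the comparison, replicate 1 of KO-LPS stood apart from the other LPS libraries. Its correlation over all genes was 0.819 to 0.851 with the 6 saline libraries and 0.786 to 0.801 with the other 5 LPS libraries. It touched the saline comparison through the spread per gene, which the model estimated from all 12 libraries, and the counts of the saline and LPS contrasts are given with and without it.

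For 3420 genes, 36.8% of those matched to the annotation, exons overlap those of an opposite-strand gene. How the counting treated strand is not given in the sources used, so reads of such overlapping genes cannot be told apart. Of 218 long non-coding RNAs whose opposite-strand partner is a measured protein-coding gene, 160 (73.4%) had more saline reads than the partner. A count made with the opposite strand setting would put the value of every gene in doubt, and this was not tested. Overlaps are named beside the genes below.

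Hmgb1 itself had 8, 17 and 12 reads in WT-Saline replicates 1 to 3 and 14, 10 and 25 reads in KO-Saline replicates 1 to 3. The groups overlapped, and the library with the most reads was one labelled KO. The level was 25.9 ± 8.83 CPM in WT-Saline and 39.7 ± 19.7 in KO-Saline (SD, n = 3). On the log2 scale the difference, KO minus WT, was 0.53 ± 0.57 (SE), with a 95% confidence interval of -0.63 to 1.70 and an adjusted p of 0.915. The gene is on chromosome 5, minus strand, from 149046702 to 149184489 (mm10), and 42 bases of its exons overlap those of Uspl1. Reads may come from exons that the deletion leaves in place, so they do not check the genotype label. Every direction given below rests on the labels.

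A single gene of the 9374 was called different between the saline groups: Ecm1, lower in the libraries labelled KO (0.0107% of the genes called, 0.0107% lower and 0% higher). Ecm1 encodes extracellular matrix protein 1, a secreted glycoprotein that binds other matrix proteins. Its reads were 63, 53 and 110 in WT-Saline and 13, 15 and 15 in KO-Saline. All 3 KO-Saline libraries were below all 3 WT-Saline libraries, and they lay closer to each other than the WT libraries did. The level fell from 156 ± 46.6 to 34.4 ± 1.98 CPM (SD, n = 3), a 4.30-fold difference. The log2 difference was -2.11 ± 0.33, with a 95% confidence interval of -2.79 to -1.42 and an adjusted p of 0.00715. The call held in 15 of 21 alternative analyses and was lost without WT-Saline replicate 1 (adjusted p = 0.0995), WT-Saline replicate 3 (0.0951), KO-Saline replicate 1 (0.0673) or KO-Saline replicate 2 (0.0932), while the difference stayed between -2.32 and -1.89. With limma's voom weights on the recovered reads the adjusted p was 0.0883, and without the mean-variance trend it was 0.394.

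The Ecm1 gene is on chromosome 3, minus strand, from 95734147 to 95739569 (mm10), and its exons overlap none on the other strand. Of its measured neighbours, 3 had lower values in every KO-Saline library than in any WT-Saline library. Adamtsl4, 46229 bases away, encodes a secreted glycoprotein that binds fibrillin and ranked 6 by p in this comparison. Its reads were 485, 730 and 825 in WT-Saline and 272, 344 and 259 in KO-Saline, 1418 ± 211 against 697 ± 60.1 CPM, with a log2 difference of -1.02 ± 0.22 (adjusted p = 0.0951). Tars2, a mitochondrial threonyl-tRNA synthetase gene that ends 406 bases from the start of Ecm1, had 57, 46 and 128 reads against 23, 32 and 33, with a log2 difference of -1.07 ± 0.38 (adjusted p = 0.562). Rprd2, a regulator of RNA polymerase II 20771 bases away, had 47, 58 and 87 reads against 30, 29 and 34, with a log2 difference of -0.81 ± 0.33 (adjusted p = 0.65). Limma on all 12 libraries called none of these 3, and 6.19% of all genes were apart in this direction. Adamtsl4 was called with voom weights (adjusted p = 0.0397), with only the 6 saline libraries (0.00134) and without KO-LPS replicate 1 (0.00262). Mcl1, the survival gene of the Bcl2 family 70970 bases from Ecm1 on the plus strand, stood at 1458 ± 146 and 1528 ± 118 CPM with a log2 difference of 0.07 ± 0.23. The remaining measured genes within 100000 bases were Prpf3, with at most 3 reads a library and a log2 difference of 0.02, and Mir7014, which lies inside Ecm1 and had at most 2. These neighbours were chosen for their place after the call of Ecm1 was known.

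The 250 bases before the start of Ecm1 and of its neighbour Adamtsl4 are shown to set the promoters of these 2 genes beside each other. Sequences are from RefSeq (GRCm38.p6), minus strand, 5′ to 3′, and end at the base before the start. Capitals mark matches to the TATA box, searched as TATAAA. They also mark matches to the AP-1 element, searched as TGANTCA. Both strands were searched, and the matches do not overlap.
Ecm1 (chr3:95739570-95739819): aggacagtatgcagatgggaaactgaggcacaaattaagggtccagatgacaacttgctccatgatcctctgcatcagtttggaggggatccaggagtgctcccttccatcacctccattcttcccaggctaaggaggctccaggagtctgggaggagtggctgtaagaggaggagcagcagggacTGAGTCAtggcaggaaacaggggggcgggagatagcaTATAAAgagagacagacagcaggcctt
Adamtsl4 (chr3:95687918-95688167): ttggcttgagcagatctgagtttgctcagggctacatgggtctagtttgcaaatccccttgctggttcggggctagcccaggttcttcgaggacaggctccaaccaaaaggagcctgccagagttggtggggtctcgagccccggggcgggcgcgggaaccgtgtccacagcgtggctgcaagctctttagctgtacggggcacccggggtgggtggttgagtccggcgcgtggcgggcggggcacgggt
The window of Ecm1 holds an AP-1 match 58 to 64 bases before its start and a TATA box match 22 to 27 bases before it. The window of Adamtsl4 holds neither. Of 32851 promoter windows of the same length, 12.4% hold a TATA box match and 6.75% an AP-1 match. A match is a description, not a bound site.

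Limma on all 12 libraries did not call the 15 genes next in order of p (adjusted p from 0.0766 to 0.288). With voom weights it called 2 of them, Csnk1d (adjusted p = 0.0103) and Adamtsl4 (0.0397), and not Ecm1. Of these, 9 were higher and 6 lower in the libraries labelled KO, and since they were chosen by p their lack of overlap is no separate result. Over all 9374 genes the groups did not overlap for 1215 (13%), 6.77% with KO higher and 6.19% with KO lower. An unadjusted p under 0.05 was reached by 643 genes (6.86%), 301 with KO higher (3.21%) and 342 with KO lower (3.65%). The median log2 difference of all genes was -0.02.

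**Figure D1:**
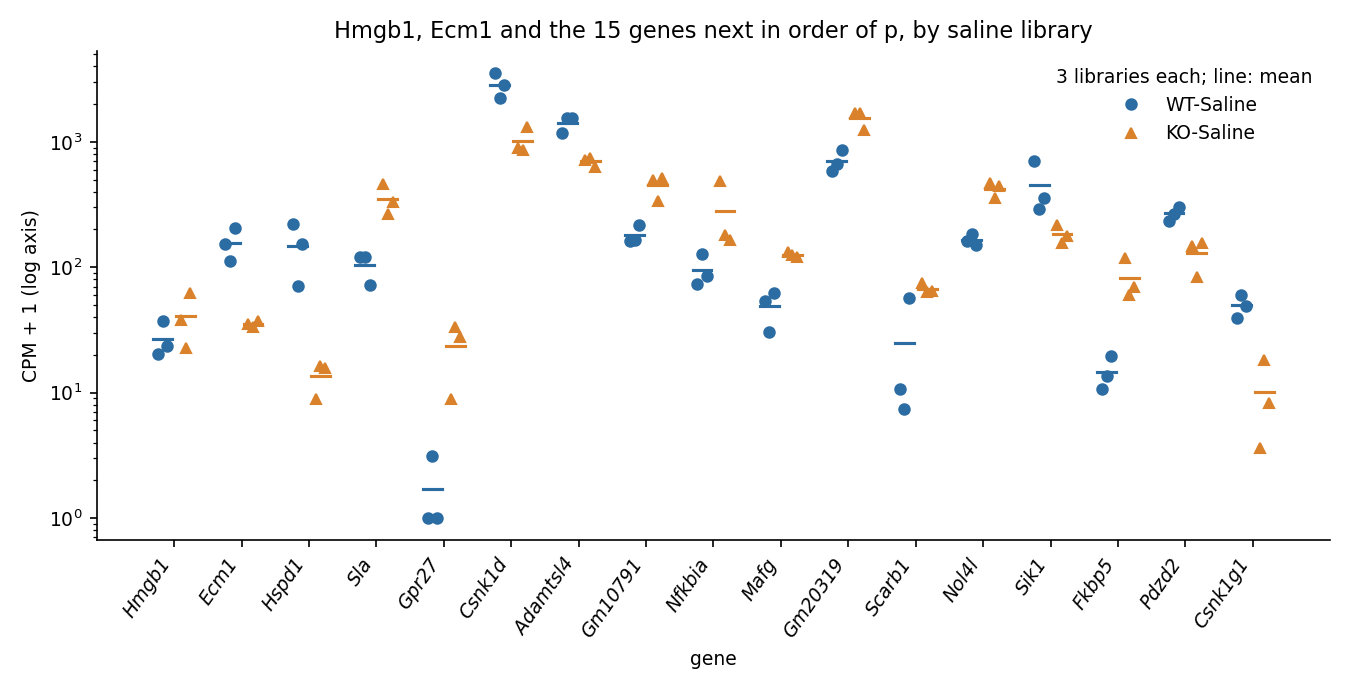
Level in CPM plus 1 (log axis) in each saline library for Hmgb1, Ecm1 and the 15 genes next in order of p; circles are WT-Saline, triangles KO-Saline, and lines mark the means of 3 libraries. Hmgb1 overlaps between the groups, while the other 16 genes, chosen by p, do not overlap on the log2 CPM scale.

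Of the lower genes, Hspd1, the mitochondrial chaperonin Hsp60, had 91, 33 and 81 reads in WT-Saline and 3, 7 and 6 in KO-Saline. Even the lowest WT library was above the highest KO library by several times, and the level was 147 ± 75.3 against 12.6 ± 4.06 CPM (log2 difference -3.33 ± 0.64, adjusted p = 0.0766). Its exons overlap those of Hspe1, its partner co-chaperonin, by 112 bases, and Hspe1 stood at 13.4 ± 9.40 and 7.25 ± 4.28 CPM (log2 difference -0.70 ± 0.99). Csnk1d, a casein kinase 1 that sets the period of the circadian clock, was among the most abundant, with 1462, 1060 and 1511 reads against 338, 399 and 539. Its level was 2865 ± 651 against 1021 ± 251 CPM, and its exons overlap Gm28192 by 63 bases. The log2 difference was -1.49 ± 0.31 (adjusted p = 0.0951). Csnk1g1, another member of the casein kinase 1 family, had 16, 28 and 26 reads against 1, 8 and 3 (-2.53 ± 0.64, adjusted p = 0.288). Sik1, a salt-inducible kinase that restrains CREB-regulated coactivators, had 290, 138 and 192 reads against 83, 71 and 73 (-1.20 ± 0.30, adjusted p = 0.269). In WT-Saline the first library stood well above the other 2. Pdzd2, a gene of a PDZ domain protein, had 97, 125 and 163 reads against 56, 38 and 64 (-1.10 ± 0.28, adjusted p = 0.288).

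Of the higher genes, Nfkbia encodes IkBα, which holds NF-kB in the cytoplasm and is itself an NF-kB target. Its reads were 30, 60 and 45 in WT-Saline and 186, 83 and 68 in KO-Saline, so replicate 1 of KO-Saline was far above the other 2. The level was 94.4 ± 28.6 against 278 ± 182 CPM (log2 difference 1.40 ± 0.31, adjusted p = 0.109). Sla, the Src-like adaptor that dampens antigen and growth factor receptor signals, had 49, 57 and 38 reads against 174, 121 and 136, with all 3 KO libraries at 263 CPM or more and no WT library above 120.5 CPM. Its log2 difference was 1.75 ± 0.36 (adjusted p = 0.0951). Fkbp5, an Hsp90 co-chaperone of the glucocorticoid receptor and a classical glucocorticoid-induced gene, had 4, 6 and 10 reads against 45, 27 and 28. The level was 13.7 ± 4.55 against 81.6 ± 32.0 CPM (2.47 ± 0.61, adjusted p = 0.269). Mafg, a small Maf protein that pairs with NRF2 and BACH1 on DNA, had 22, 14 and 33 reads against 50, 57 and 49 (1.42 ± 0.31, adjusted p = 0.109).

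Scarb1, the HDL receptor SR-B1, had 4, 3 and 30 reads in WT-Saline and 28, 29 and 26 in KO-Saline. The third WT library, at 55.9 CPM, lay just below the KO libraries, at 62.9 to 73.5 CPM, and the other 2 far below (log2 difference 2.02 ± 0.46, adjusted p = 0.119). Gpr27, an orphan G protein-coupled receptor, had a single read in WT-Saline, in replicate 2, and 3, 15 and 11 reads in KO-Saline. The ratio of pooled reads, KO over WT, was 32.9 with a 95% counting interval of 5.46 to 1345 (adjusted p = 0.0951). Nol4l, the nucleolar protein 4-like gene, had 66, 86 and 80 reads against 179, 164 and 182 (1.36 ± 0.33, adjusted p = 0.269).

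The last 2 are long non-coding RNAs. Gm10791 stood at 181 ± 30.4 and 448 ± 95.5 CPM (1.29 ± 0.28, adjusted p = 0.109). Gm20319 stood at 701 ± 141 and 1545 ± 270 CPM (1.14 ± 0.26, adjusted p = 0.119). Exons of Gm20319 overlap by 552 bases those of Il1rap, the shared accessory chain of the IL-1, IL-33 and IL-36 receptors. Il1rap itself stood at 109 ± 24.0 and 210 ± 45.4 CPM, with a log2 difference of 0.95 ± 0.31 (adjusted p = 0.522). Both rows of the pair were thus higher in KO-Saline, and which strand the reads came from cannot be told apart.

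**Figure D2:**
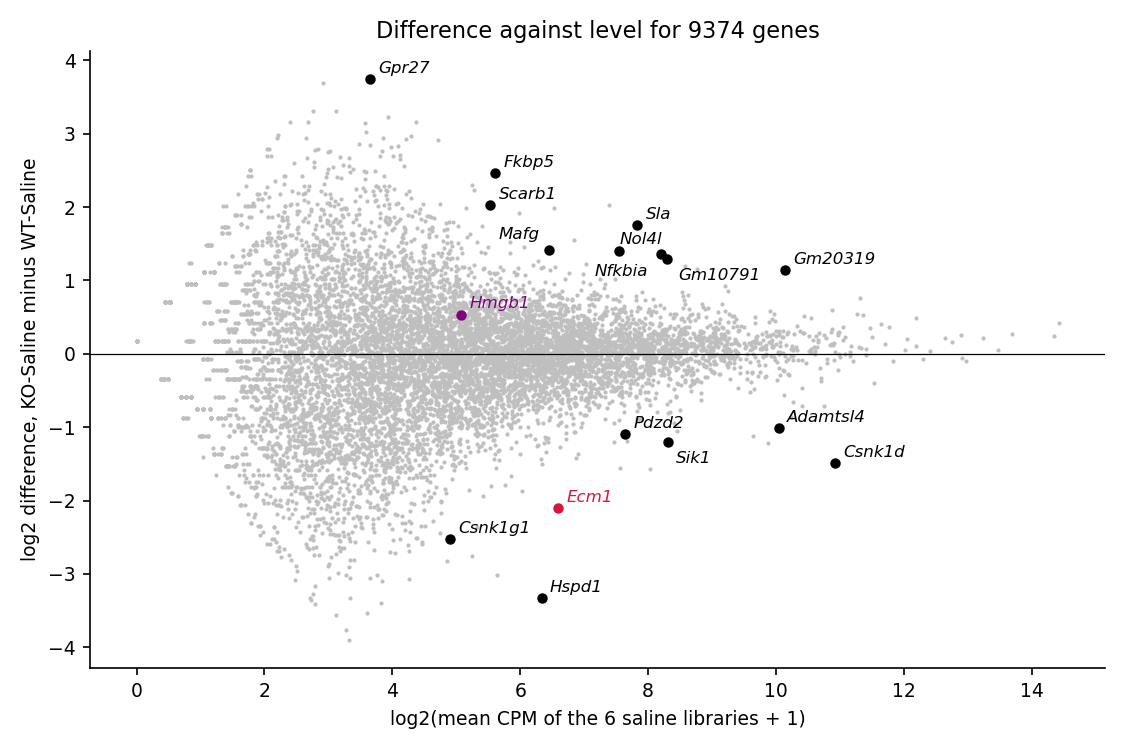
Log2 difference, KO-Saline minus WT-Saline, against log2 of the mean CPM plus 1 over the 6 saline libraries for all 9374 genes (grey). Ecm1 (red) lies at -2.11, Hmgb1 (purple) at 0.53 inside the cloud, and the 15 genes next in order of p (black) lie at its edge, from -3.33 for Hspd1 to 3.75 for Gpr27.

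Without replicate 1 of KO-LPS, the library that stood apart from its group, the saline comparison called 31 genes (0.331%), 20 higher and 11 lower. With only the 6 saline libraries in the model it called 22 (0.235%), 10 higher and 12 lower, and 19 genes were called in both. Both analyses rest on the same 6 saline libraries and the same differences, with another estimate of the spread. Csnk1g1 alone of the 16 genes above was not called without that library. Of the 31 genes, 30 had groups that did not overlap, against 13% of all genes. Since the 31 were chosen by p, this is no separate result. Exons of 8 overlap a gene on the other strand, against 36.8% of all genes matched to the annotation. Of the remaining 16 genes, those named here were chosen after their values were seen.

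Bysl, needed for assembly of the small ribosomal subunit, had 814, 749 and 1123 reads against 1455, 1374 and 1145. Its log2 difference was 0.76 (limma adjusted p = 0.294 with all 12 libraries and 0.0094 without KO-LPS replicate 1). Bysl overlaps by 361 bases the cyclin gene Ccnd3, whose level was 201 ± 34.0 and 337 ± 57.1 CPM (0.74 ± 0.24). Ifitm1, an interferon-induced membrane protein gene, had 81, 98 and 233 reads against 292, 238 and 202, so the third WT library reached the range of raw reads in KO-Saline, though not of scaled levels. Apobec3, a restriction factor of retroviruses, had 26, 21 and 29 reads against 59, 58 and 35. Wfdc17, a secreted whey acidic protein family gene, had 59, 21 and 69 reads against 136, 129 and 68. Qsox1, a secreted sulfhydryl oxidase gene, had 4, 13 and 10 reads against 40, 20 and 12. In the 3 genes last named, replicate 3 of KO-Saline was the lowest of its group.

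Of the lower genes, Myh10, the non-muscle myosin IIB heavy chain, had 631, 533 and 701 reads against 233, 268 and 207, 1320 ± 201 against 565 ± 55.8 CPM. Its log2 difference was -1.21 (limma adjusted p = 0.414 with all 12 libraries and 0.000958 without KO-LPS replicate 1). Zswim4 had 543, 445 and 547 reads against 197, 224 and 199 (-1.12, adjusted p = 0.471 and 0.00272 in the same order). Both were chosen by p, so the gap between their saline groups is no separate result. In LPS the groups of Myh10 overlapped (-0.04 ± 0.34). Those of Zswim4 were apart the other way, with 50, 56 and 59 reads in WT-LPS and 199, 63 and 57 in KO-LPS. Its difference there was 0.90 ± 0.33 (limma adjusted p = 0.891), and KO-LPS replicate 1 was far above the rest. In saline, Pgghg, a lysosomal-type glucosidase gene acting on collagen sugars, had 796, 1199 and 1056 reads against 515, 617 and 502. BC049352 had 112, 159 and 121 reads against 57, 41 and 24. The 16 also included the granule gene pair Ltf and Ngp and the surface antigen gene Ly6c2, described with their lists, the long non-coding RNAs D730005E14Rik and Gm15350, and Pik3ip1, an inhibitor of PI3 kinase. Gm15350 overlaps by 199 bases the flippase gene Atp11a, which stood at 105 ± 48.1 and 196 ± 14.99 CPM.

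Genes were then read in 29 lists by function and cell type, with 534 different measured members. None of these was called in the model of all 12 libraries, and 5 were called without KO-LPS replicate 1: Ltf, Ngp, Ly6c2 and Nfkbia as higher, Hspd1 as lower. The lists below are described by how many members had groups that did not overlap, against 6.77% (KO higher) and 6.19% (KO lower) of all genes, and by their median log2 difference, against -0.02 for all genes. Among genes with 10 or more saline reads on average, these values were 8.28%, 7.16% and 0.01.

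The specific granule list had the highest median of the 29, 0.45 over 28 measured members. In 8 members every KO-Saline library was above every WT-Saline library, and in 1 the reverse held. Unadjusted p was under 0.05 for 6 members, all with KO higher. Ngp, neutrophilic granule protein, had 35, 21 and 29 reads in WT-Saline and 179, 80 and 72 in KO-Saline (61.0 ± 21.1 against 273 ± 171 CPM, log2 difference 2.03 ± 0.55, adjusted p = 0.308). Ltf, the iron-binding lactotransferrin, had 14, 8 and 20 reads against 114, 56 and 16 (29.3 ± 10.9 against 153 ± 133 CPM, 1.98 ± 0.52, adjusted p = 0.294). For both, KO-Saline replicate 1 was the highest library, and for Ltf replicate 3 had fewer reads than one WT library but a higher level once scaled. Camp, the cathelicidin precursor, had 0, 2 and 0 reads against 30, 13 and 0, a ratio of pooled reads of 24.4 (95% counting interval 6.36 to 208), and its groups overlapped because KO-Saline replicate 3 had none. Without that replicate Camp and Ltf were called.

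Other members of the specific granule list were less far apart. Wfdc21, a secreted antimicrobial-type protein gene, had 11, 22 and 31 reads against 61, 49 and 25 (1.26 ± 0.34, adjusted p = 0.294). Chil1, a chitinase-like protein gene, stood at 141 ± 47.5 and 238 ± 52.1 CPM (0.78 ± 0.27) and Cd33, a sialic acid-binding receptor gene, at 541 ± 131 and 760 ± 53.04 CPM (0.52 ± 0.21). Pglyrp1, Cd177, Cyba and Itgam were also apart with KO higher, by 0.24 to 0.69 log2 units. Lcn2, the siderophore-binding lipocalin, stood at 386 ± 116 and 588 ± 119 CPM (0.62 ± 0.44), with overlapping groups. Ceacam1, an adhesion molecule gene, was apart in the other direction (61.7 ± 24.3 against 31.9 ± 8.21 CPM). Summed over the list, the level was 4991 to 5921 CPM in WT-Saline and 6253 to 7766 in KO-Saline. Leaving out each saline library in turn kept the median between 0.35 and 0.47. In LPS, where the libraries are others, the list's median was -0.15, with Ngp at -1.06 ± 0.55 and Ltf at -1.08 ± 0.52. Without KO-LPS replicate 1 the median was 0.17, with Ngp at 0.13 ± 0.30 and Ltf at -1.13 ± 0.52.

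**Figure D3:**
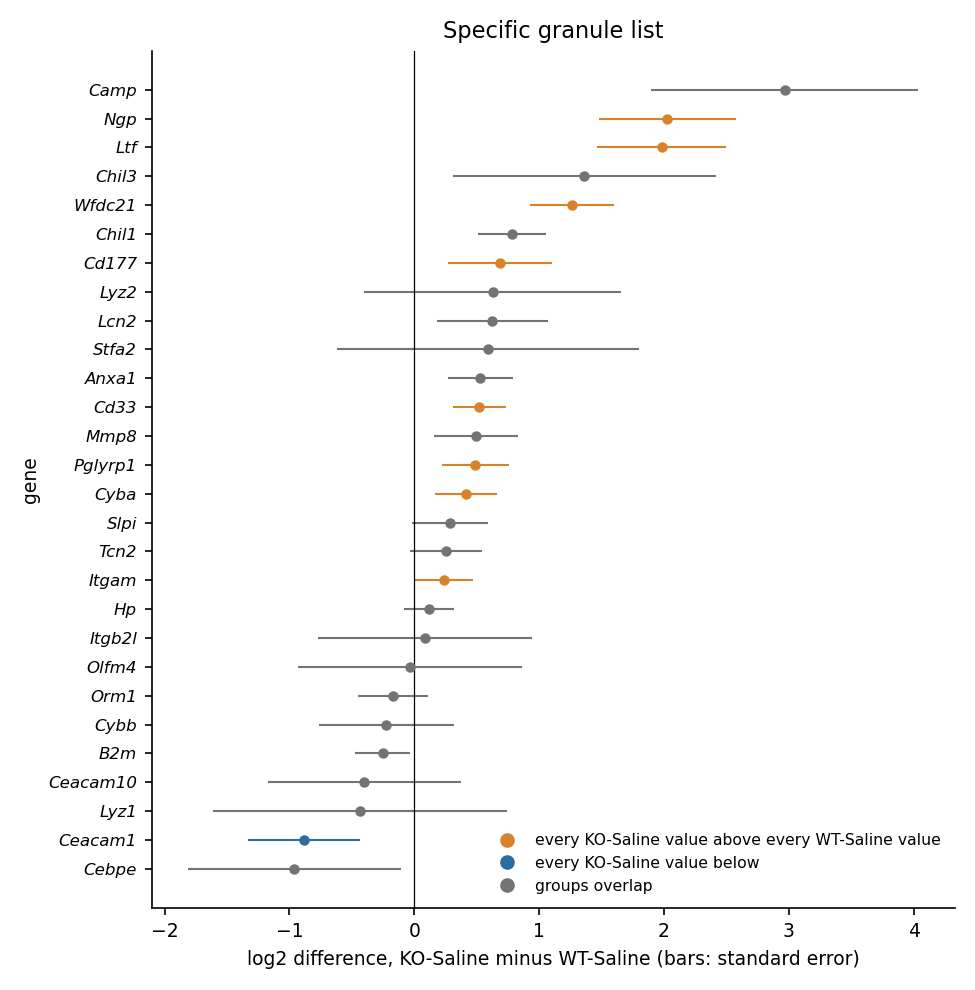
Log2 difference, KO-Saline minus WT-Saline, of the 28 measured specific granule genes, with standard errors; colours mark genes whose 3 and 3 libraries do not overlap. Of the 28, 20 lie above 0, and 8 do so with groups that do not overlap.

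The other granule lists had medians near that of all genes. The azurophil granule list stood at -0.01 over 8 measured members, with 2 apart and KO higher and 0 with KO lower, and the gelatinase granule and secretory vesicle list at -0.02 over 14, with 3 members apart and KO higher. Srgn, the proteoglycan core of granules, stood at 795 ± 21.5 and 962 ± 129 CPM. Lilrb4a, an inhibitory receptor gene, stood at 473 ± 118 and 647 ± 52.9 CPM (0.48 ± 0.23). Among the mature neutrophil markers, 5 of 19 were apart with KO higher and 2 with KO lower, and the median was 0.13. The calprotectin subunits S100a8 and S100a9 stood at 2025 ± 547 against 2883 ± 193 and at 3954 ± 1062 against 5439 ± 245 CPM, log2 differences of 0.54 ± 0.20 and 0.49 ± 0.20 (adjusted p = 0.596 and 0.65). Ly6g, named after its values were seen, had 4, 5 and 9 reads against 18, 23 and 15 (1.79 ± 0.48, adjusted p = 0.294). Cxcr4, the receptor that retains and returns neutrophils to the bone marrow and that also binds the HMGB1 and CXCL12 complex, was apart the other way, with 246, 201 and 188 reads against 99, 140 and 94 (457 ± 126 against 264 ± 37.7 CPM, -0.76 ± 0.40, adjusted p = 0.779). Its CXCL8-type counterpart Cxcr2 stood at 878 ± 62.0 and 1035 ± 87.0 CPM (0.24 ± 0.21).

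HMGB1's own family and its receptors were measured next. Of 22 HMG-box and related genes, 12 were in the table. Hmga2, an AT-hook chromatin protein gene, was the one member with groups apart, with 9, 7 and 3 reads against 9, 22 and 22 (1.60 ± 0.70, adjusted p = 0.666), and it overlaps 1700006J14Rik by 140 bases. Hmgb2, the closest relative of Hmgb1 among those measured, stood at 142 ± 34.6 and 103 ± 47.2 CPM (-0.52 ± 0.37), and Hmgb3 had 0, 15 and 13 reads against 5, 1 and 2. Neither pair of groups was apart. Among 29 measured receptors and signalling genes of the HMGB1 and TLR list, 2 were apart with KO higher and 3 with KO lower, and the median was -0.07. Ager had 10, 10 and 4 reads against 3, 13 and 6, Tlr4 stood at 83.9 ± 24.9 and 88.1 ± 19.8 CPM, and Tlr2 at 166 ± 33.5 and 133 ± 43.9 CPM, all with overlapping groups. Thbd, thrombomodulin, which binds HMGB1, had 78, 62 and 58 reads against 27, 38 and 19 (143 ± 41.6 against 66.5 ± 18.5 CPM, -1.09 ± 0.42, adjusted p = 0.624). Traf6, the ubiquitin ligase downstream of MyD88, had 34, 83 and 68 reads against 25, 22 and 31 (-0.97 ± 0.61). Tlr6 and the kinase Irak4 were the 2 members apart with KO higher (0.82 ± 0.45 and 0.55 ± 0.34). None of these was called.

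Of 26 immediate-early genes none was apart with KO higher and 5 were apart with KO lower, and the median was -0.33. That median was -0.10 without WT-Saline replicate 1, and no member was called in the model of all 12 libraries. The most abundant members, the phosphatase Dusp1 and the AP-1 subunit Jund, were at the same level in both groups within their spread, at 2260 ± 474 against 2284 ± 428 and 1442 ± 46.0 against 1478 ± 119 CPM. Fos stood at 1340 ± 366 and 903 ± 225 CPM (-0.56 ± 0.59), with overlapping groups. The 5 members that were apart, named after their values were seen, were Nr4a1, Junb, Atf3, Dusp2 and Dusp5. Nr4a1, an orphan nuclear receptor induced within minutes of stimulation, had 32, 39 and 27 reads against 5, 17 and 16 (-1.31 ± 0.40, adjusted p = 0.471). Junb stood at 1163 ± 161 and 900 ± 55.3 CPM (-0.36 ± 0.31). Dusp2 had 7, 8 and 3 reads against 1, 0 and 0, a ratio of pooled reads, WT over KO, of 15.8 (95% counting interval 2.50 to 660).

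Of 35 NF-kB targets, cytokines and chemokines, 4 were apart with KO higher and 8 with KO lower, and the median was -0.16. Il1b, the pro-inflammatory cytokine interleukin-1β, had 695, 725 and 981 reads against 309, 475 and 531 (1681 ± 147 against 1044 ± 241 CPM, -0.71 ± 0.42, adjusted p = 0.798), and it overlaps Il1bos by 25 bases. Ccl6, a chemokine of myeloid cells, was apart the other way, at 636 ± 95.9 and 817 ± 19.8 CPM (0.37 ± 0.39). Tnfaip2 stood at 690 ± 35.02 and 606 ± 53.2 CPM, with overlapping groups. The following were named after their values were seen. Ptgs2, the inducible prostaglandin synthase COX-2, had 42, 68 and 11 reads against 4, 6 and 1 (-3.01 ± 1.16, adjusted p = 0.618). Osm, oncostatin M, had 48, 51 and 61 reads against 24, 27 and 26 (-0.86 ± 0.60). Tnfaip3, the A20 inhibitor of NF-kB, had 20, 12 and 14 reads against 9, 6 and 3 (-1.19 ± 0.68), and so stood on the opposite side from Nfkbia, the other feedback inhibitor of the list. Summed over the list, the level was 5085 to 5233 CPM in WT-Saline and 4205 to 4638 in KO-Saline, a sum to which Il1b contributes most.

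Of 36 autophagy genes 6 were apart with KO higher and 1 with KO lower, and the median was 0.12. Map1lc3b, the LC3B protein of autophagosome membranes, stood at 127 ± 20.01 and 191 ± 28.8 CPM (0.58 ± 0.28, adjusted p = 0.717). Pik3c3, the lipid kinase Vps34, had 0, 1 and 5 reads against 5, 10 and 13 (2.70 ± 0.90, adjusted p = 0.522), and Becn1, its partner Beclin 1, 16, 20 and 27 against 23, 29 and 34 (0.63 ± 0.38). Becn1 overlaps Cntd1 by 3104 bases. Atg12, a ubiquitin-like conjugate of autophagosome formation, was apart the other way (28.1 ± 6.77 against 16.6 ± 5.73 CPM), and the most abundant member, Atg7, overlapped between groups (498 ± 89.4 against 652 ± 209 CPM). Of 47 nuclear-encoded respiratory chain genes 6 were apart with KO higher and 0 with KO lower, and the median was 0.30. It was 0.15 without WT-Saline replicate 3 or KO-Saline replicate 2 and 0.17 with a pseudocount of 5 CPM. Its most abundant members, Atp5j, Cox7c and Atp5b, all had overlapping groups. Summed over the list, the level was 1135 to 1239 CPM in WT-Saline and 1287 to 1352 in KO-Saline.

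Of 24 heat shock and protein folding genes 3 were apart with KO higher and 5 with KO lower, and the median was 0.03. Hsf1, the heat shock transcription factor, had 114, 72 and 167 reads against 30, 43 and 59 (246 ± 83.4 against 105 ± 34.0 CPM, -1.20 ± 0.49, adjusted p = 0.638). The constitutive chaperone Hspa8 stood at 77.3 ± 1.08 and 114 ± 6.45 CPM (0.56 ± 0.34) and Xbp1, a transcription factor of the unfolded protein response, at 98.4 ± 8.35 and 119 ± 6.96 CPM (0.27 ± 0.28). The 2 directions were thus mixed within the list. Of 29 adhesion and chemoattractant receptor genes 7 were apart with KO higher and 2 with KO lower, with a median of 0.12. Selplg, the P-selectin ligand PSGL-1, stood at 1113 ± 5.37 and 1450 ± 199 CPM (0.37 ± 0.20), while the groups overlapped for Cd44. Of 46 interferon-stimulated genes 5 were apart with KO higher and 4 with KO lower, with a median of 0.12. The most abundant, Slfn4, stood at 1054 ± 91.9 and 1074 ± 144 CPM and Oasl2 at 442 ± 125 and 643 ± 78.0 CPM (0.57 ± 0.25).

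For NADPH oxidase and antioxidant genes, 5 of 28 were apart with KO higher and 1 with KO lower (median 0.15). For lipid mediator genes these were 3 and 2 of 17 (-0.10), for inflammasome genes 1 and 3 of 22 (0.12), for apoptosis regulators 3 and 0 of 20 (0.01), for glycolysis 1 and 1 of 22 (0.06) and for cell cycle genes 1 and 1 of 15 (0.06). Histones and their chaperones had 0 and 2 of 13 apart (-0.22, and 0.06 without KO-Saline replicate 3), DNA damage genes 0 and 0 of 23 (0.05) and nucleic acid sensors 0 and 0 of 11, with a median that rounded to 0. Gsr and Rac2 led the oxidase list with 1101 and 824 CPM in WT-Saline and 1114 and 901 in KO-Saline, with overlapping groups. Mcl1, Pkm and Samhd1, the most abundant apoptosis, glycolysis and sensor genes, differed by 0.07, 0.06 and -0.00 log2 units.

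**Figure D4:**
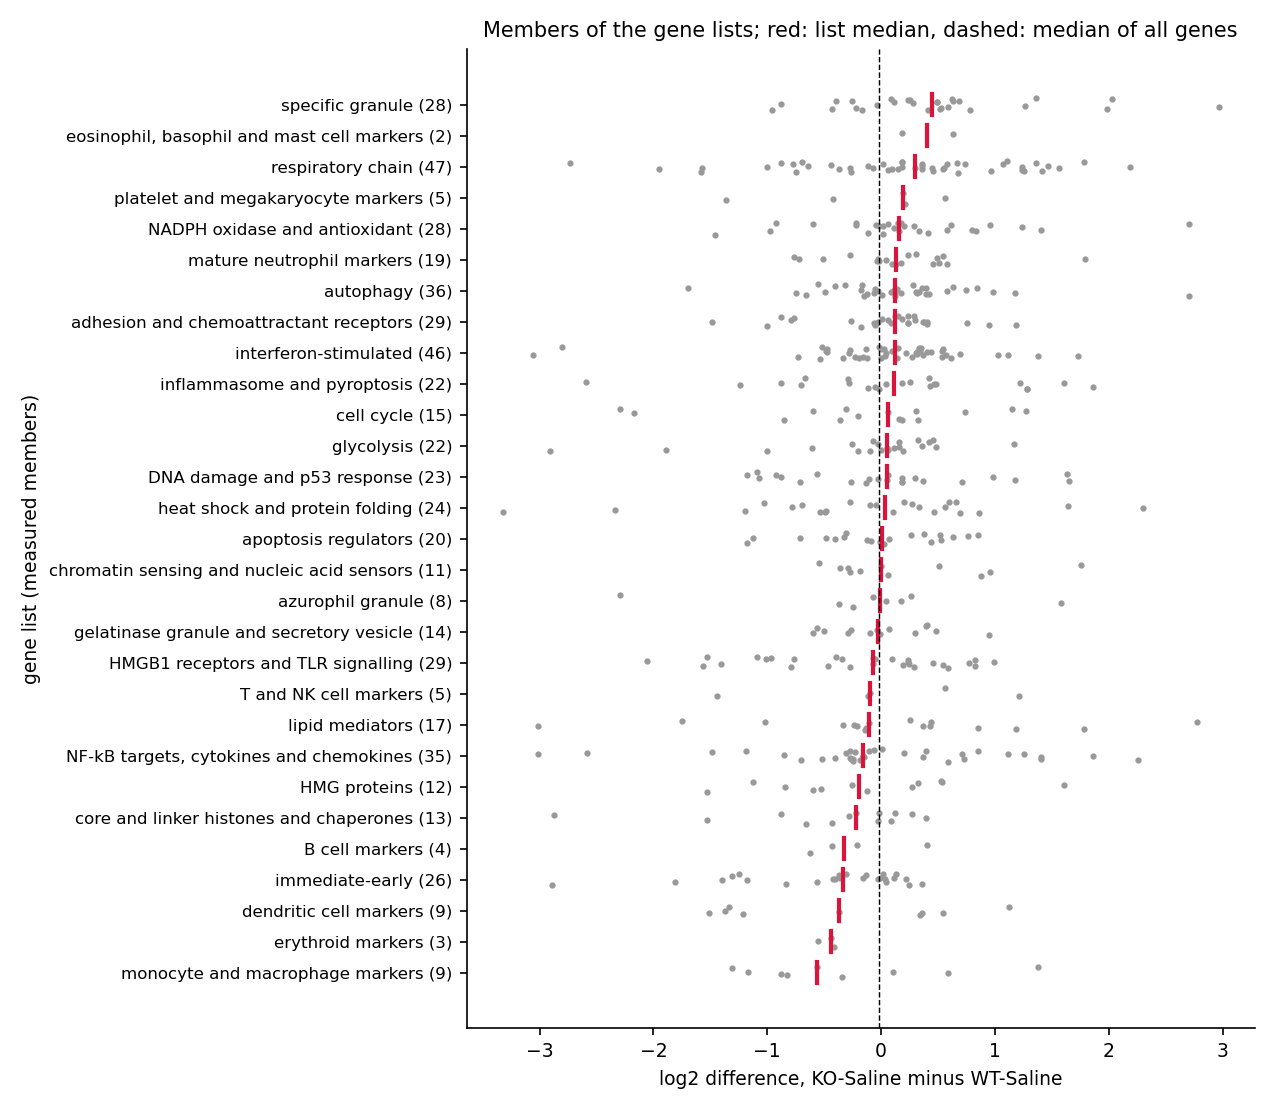
Log2 difference, KO-Saline minus WT-Saline, of the measured members of each of the 29 lists (points), ordered by list median (red); the dashed line is the median of all genes, -0.02. List medians run from -0.56 (monocyte and macrophage markers) to 0.45 (specific granule).

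Markers of other cells were read in the same libraries, since fewer cells of a type and less RNA per cell cannot be told apart in bulk samples. Of 20 monocyte and macrophage markers 9 were measured, 1 apart with KO higher and 4 with KO lower (median -0.56), and their summed level was 641 to 723 CPM in WT-Saline and 533 to 574 in KO-Saline. Vsig4, a complement receptor of macrophages, had 34, 99 and 80 reads against 29, 32 and 17 (-1.17 ± 0.52, adjusted p = 0.666). Apoe, a lipid carrier made by macrophages, had 38, 38 and 39 reads against 21, 20 and 16 (-0.82 ± 0.73). The M-CSF receptor gene Csf1r stood at 244 ± 49.6 and 260 ± 18.9 CPM. Ly6c2, the antigen of inflammatory monocytes that immature granulocytes also carry, went the other way, with 8, 12 and 27 reads against 27, 27 and 46 (1.38 ± 0.45, adjusted p = 0.51, and 0.0437 without KO-LPS replicate 1). Nr4a1, named above, is on this list too. The part of these cells in the differences above was not tested.

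Of 18 erythroid markers 3 were measured, summing to 473 to 598 CPM in WT-Saline and 339 to 408 in KO-Saline, most of it Sptb, a membrane skeleton spectrin (464 ± 91.5 against 338 ± 16.2 CPM, -0.44 ± 0.22, adjusted p = 0.732). Alas2, the erythroid heme synthesis enzyme, had at most 12 reads in a library. Platelet markers overlapped between the groups, with 5 of 16 measured, sums of 668 to 1041 and 950.3 to 1063 CPM and 0 members apart. Gp1ba, the von Willebrand factor receptor subunit, held most of it (619 ± 130 against 699 ± 92.7 CPM). Dendritic cell markers (9 of 18 measured) summed to 152 to 218 and 75.4 to 143 CPM, B cell markers (4 of 16) to 150.1 to 194 and 173 to 194 CPM, and T and NK cell markers (5 of 26) to 177 to 231 and 132 to 268 CPM. Eosinophil, basophil and mast cell markers (2 of 18) summed to at most 39.4 CPM. Clec9a led the dendritic list at 119 ± 44.4 and 47.8 ± 25.5 CPM, Cr2 the B cell list at 102 ± 12.4 and 135 ± 1.21, and Cd3d the T cell list at 107 ± 24.2 and 99.9 ± 28.4. The monocyte, erythroid and dendritic cell sums did not overlap between the groups, and all 3 were lower in KO-Saline. By member, the dendritic list was mixed, with 4 higher and 5 lower in KO-Saline and 0 apart. All 3 erythroid members were lower, 1 of them with groups apart.

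The same genotype contrast in the LPS libraries shares no library with the saline contrast. There limma called 0 genes (0%), 471 had an unadjusted p under 0.05 (5.02%, 2.74% with KO higher and 2.28% with KO lower), and the groups did not overlap for 944 (10.1%, 4.74% and 5.33%). With voom weights on the recovered reads it called 1. Without KO-LPS replicate 1 it called 0, 457 genes had an unadjusted p under 0.05 (4.88%), and the 3 and 2 libraries left did not overlap for 1987 (21.2%). Of the 16 genes above, Ecm1 included, 0 had groups apart in LPS, 5 had the sign seen in saline and 11 the opposite sign. Without KO-LPS replicate 1 these counts were 1 (Gpr27), 10 and 6, so the balance of signs turned with that library. Ecm1 kept its sign, with 113, 138 and 95 reads in WT-LPS and 35, 61 and 101 in KO-LPS (245 ± 60.5 against 153 ± 61.6 CPM, -0.72 ± 0.33, unadjusted p = 0.0395, adjusted p = 0.949), and a difference of -0.41 ± 0.33 (unadjusted p = 0.225) without KO-LPS replicate 1. Adamtsl4 stood at 881 ± 218 and 895 ± 115 CPM (0.05 ± 0.22). Hspd1 had 4, 6 and 15 reads against 12, 3 and 9 (0.16 ± 0.64), so its WT-LPS level lay near that of KO-Saline. Csnk1d had 184, 366 and 399 reads against 799, 265 and 317 (0.64 ± 0.31), Fkbp5 126, 84 and 158 against 6, 106 and 113 (-1.28 ± 0.61) and Sla 174, 154 and 237 against 48, 167 and 279 (-0.30 ± 0.36). In these 3 genes KO-LPS replicate 1 was the library far from the other LPS libraries, and without it the differences were 0.08 ± 0.22, 0.01 ± 0.39 and 0.35 ± 0.27. Nfkbia stood at 426 ± 49.4 and 410 ± 27.9 CPM (-0.05 ± 0.31). LPS against saline in WT was called by limma for 10 of the 16 genes, Hspd1 included, against 11.7% of all genes. Each of the 10 had the sign of its saline genotype difference. Ecm1 was not called (0.65 ± 0.33, limma adjusted p = 0.229). That contrast shares the WT-Saline libraries with the one that chose the 16, so this is no separate result.

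The difference between the contrasts, the interaction, was called for 0 genes by limma, with 560 at an unadjusted p under 0.05 (5.97%), and for 2 with voom weights. It contains the saline contrast that chose the 16 genes, so for them it is a description: 14 had an unadjusted p under 0.05, and adjusted p ran from 0.226 to 0.883. Without KO-LPS replicate 1 the interaction was called for 3 genes, among them Csnk1d (1.57, adjusted p = 0.0327), with 542 at an unadjusted p under 0.05 (5.78%), 15 of the 16 included.

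**Figure D5:**
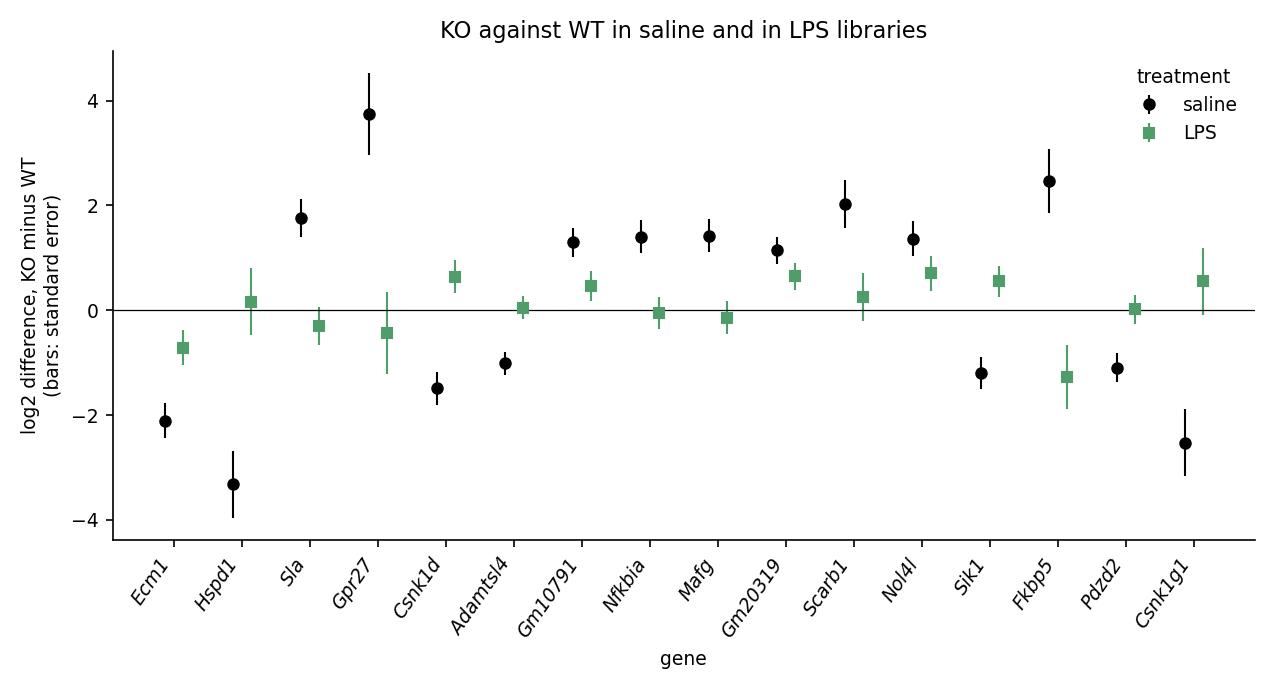
Log2 difference, KO minus WT, with standard errors, in saline (black circles) and in LPS (green squares) for Ecm1 and the 15 genes next in order of p in saline. In LPS the differences lie between -1.28 (Fkbp5) and 0.71 (Nol4l), and Ecm1 is at -2.11 in saline and -0.72 in LPS, all with KO-LPS replicate 1 included.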

How the data were processed

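RNA of blood neutrophils was sequenced in 12 libraries, 3 in each of 4 groups. The labels' protocols name the miRNeasy micro kit (Qiagen) for RNA and a Tecan kit for total RNA with mouse probes for libraries. The authors deposited normalized expression on a log2 scale for 9374 genes listed by NCBI Gene ID. The values have the form of log2 CPM with 0.5 reads added, since solving for the reads gave whole numbers (tolerance 0.0001) for 100% of values in every column. The build was mm10, per the submitters' processing notes. Aligner, counter, strand setting and gene filter were not given in the sources used here. Symbols (9372) came from RefSeq and positions (9299 genes) from GENCODE M21, 1-based. Overlaps were found with bedtools 2.31.1.

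The deposited log2 values were fitted with limma 3.58.1 (R 4.3.3) as 4 group means over all 12 libraries, with moderated statistics and a mean-variance trend, and tested two-sided for KO-Saline minus WT-Saline. Calls required p under 0.05 after Benjamini-Hochberg adjustment over all genes. The fit was also run on simulated reads, with the same spread setting for every gene and no library standing apart. That run therefore does not show how calls in these data depend on single libraries. A ± after a log2 difference is its standard error, and after a CPM value the SD of 3 libraries. Differences include the added 0.5 reads, which understates those of low genes. Groups were called apart when all 3 log2 CPM values of one lay above all 3 of the other. Intervals of read ratios (95%, exact) and the limit of 3 reads cover counting error only, since reads lacking molecular identifiers may be copies of one molecule.

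The named genes were Hmgb1, every called gene, the 15 next in order of p, and from each list up to 3 called or else the 3 most abundant members, with any member of the HMG, HMGB1 receptor, specific granule, autophagy and platelet lists. Genes named outside this rule are marked in the text. The comparison, its members and the lists were chosen with earlier results of these data known. Alternatives changed the libraries, trend, filter, pseudocount, scaling, replicate block, weights and genes tested. All 12 columns were used. Some named genes are not reported here.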

Additional observations from a re-analysis of the deposited data

Results flagged for a closer look

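Tcf7, a transcription factor of T cells, was the gene whose difference between genotypes went one way in saline and the other in LPS in every library. It had 11, 14 and 18 reads in WT-Saline and 9, 2 and 4 in KO-Saline, and 0, 2 and 3 reads in WT-LPS and 9, 3 and 3 in KO-LPS. The difference KO minus WT was -1.44 ± 0.92 in saline and 1.78 ± 0.92 in LPS on the log2 scale, and the interaction was 3.22 ± 1.31 (limma adjusted p = 0.792), so it did not pass the test. The LPS counts are near the limit of 3 reads per library.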

How the results depend on the processing

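The saline comparison called 1 gene, 0 higher and 1 lower. The count was 22 (10 higher, 12 lower) with only the 6 saline libraries, 0 without the mean-variance trend, 4 (1 and 3) with a pseudocount of 5 CPM, 2 (0 and 2) with voom weights, and 1 with a filter at log2 CPM of 4, quantile normalization, median centring or genes free of opposite-strand overlap. Without each library in turn it ran from 0 to 31, with 0 to 20 higher and 0 to 11 lower. It was 0 without WT-Saline replicate 1 or KO-Saline replicates 1 or 2, 2 without WT-Saline replicate 3 (Ifnlr1, Scarb1) and 3 without KO-Saline replicate 3. Members of the lists called were 0, and 2 with the 6 saline libraries, 1 with the larger pseudocount and 0 to 5 without a library. Calls in LPS were 0, 1 with voom weights and 0 to 2 without a library. The interaction had 0 calls, 2 with voom weights, 3 without KO-LPS replicate 1 and 0 to 7 without a library. The cause of these changes was not tested. Of the genes at an unadjusted p under 0.05, 46.8% had KO higher, and 59.2% after median centring. All 16 genes named first kept their sign in every alternative that tested them. They were chosen by p and their saline groups did not overlap, so leaving out a library could not turn a sign. This is therefore no separate result.

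With genes free of opposite-strand overlap the list medians were -0.56 for HMG proteins, -0.27 for DNA damage and -0.82 for monocytes, and with the filter 0.32 for HMG proteins. Without a library in turn, medians ran from -0.19 to 0.19 for HMG proteins, -0.33 to -0.10 for immediate-early genes, 0.054 to 0.32 for autophagy, -0.17 to 0.21 for apoptosis, -0.20 to 0.23 for heat shock, -0.36 to 0.18 for the cell cycle, -0.21 to 0.34 for lipid mediators, -0.13 to 0.38 for nucleic acid sensors, -0.39 to -0.038 for B cells, -0.53 to 0.060 for histones, 0.15 to 0.30 for the respiratory chain and -1.05 to -0.091 for erythroid markers. The median of 15 of the 29 lists changed sign without one of the saline libraries.

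Replicate numbers did not pair the samples (correlations of deviations of 0.0093, 0.0025 and 0.016 for equal numbers). With the replicate number as a block, 1 gene was called, Ecm1 (adjusted p = 0.0119), and 633 had an unadjusted p under 0.05. The planned count models of edgeR and DESeq2 were not run, since the deposited values are log2 values. Whole reads were recovered from these values, so the scale itself did not prevent such models. The median gene had 10.7 reads per saline library; how depth bears on the count of calls was not tested.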
